A study of Homo sapiens with 12 samples.

Results

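CWR22Rv1 cells that expressed exogenous MEIS1 were compared with and without targeting of HOXB13. CWR22Rv1 is an established human prostate carcinoma line. The comparison uses the 3 libraries labelled HOXB13ko-LV-MEIS1 and the 3 libraries labelled LV-MEIS1, which are 6 of the 12 libraries of the series, chosen by their labels, and all 13951 genes listed in the expression files. LV-MEIS1 cells carried lentiviral MEIS1 and no HOXB13 guide. HOXB13ko-LV-MEIS1 cells carried Cas9 and the same lentiviral MEIS1 after targeting of HOXB13. Per the study's methods, 6 edited clones were recombined into a single knockout pool, which was then infected with the MEIS1 vector, and loss of the HOXB13 protein was shown by western blot. Control cells (Cas9 and no guide) and the pool without added MEIS1 (HOXB13ko) form the other groups of 3. All cells were cultured for 48 h in medium with puromycin. Every group comes from only 1 line or pool. The p-values therefore measure the spread between samples of that line, which may be technical, and differences of clone, vector or derivation cannot be told apart from the HOXB13 genotype. Whether LV-MEIS1 cells carry Cas9 is not given in the sources used here.

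HOXB13 is a posterior homeodomain factor of the prostate epithelium. MEIS1 belongs to the TALE homeodomain family, whose members bind DNA as partners of HOX proteins. The comparison therefore addresses what differs in MEIS1-expressing cells once HOXB13 has been targeted.

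The HOXB13 guide is shown because it defines the groups. It matched 1 site on the chromosomes of GRCh38, at chr17:48728454-48728473 on the plus strand, within coding exon 1 of the 2 exons of HOXB13 (ENSG00000159184, minus strand). A Cas9 cut 3 bases from the PAM would fall after coding base 123 of 852, upstream of the homeodomain. The capitals mark the PAM in the first line, and the guide's target within the gene's own strand (chr17:48728424-48728503) in the second.
Guide and PAM: ttgacagcaggcatcagcgtAGG
HOXB13 coding strand: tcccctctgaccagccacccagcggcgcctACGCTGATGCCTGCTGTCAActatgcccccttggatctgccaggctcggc

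Values are CPM, reads of a gene scaled to the size of its library, as deposited. Across the 12 libraries, depth estimated from the steps between low CPM values was 17200000 to 28700000 reads, and 3 reads corresponded to 0.105 to 0.175 CPM. Correlations of log2 values over genes were 0.993 to 0.994 within the groups compared and 0.959 to 0.964 between them. All 13 luminal prostate markers were listed, including KRT8 and KRT18. Their summed level was 2988 to 3048 CPM in LV-MEIS1 and 4011 to 4218 CPM in HOXB13ko-LV-MEIS1. Of the defining markers of other cell types, 1 of 6 basal (DST), 5 of 12 fibroblast and smooth muscle, 0 of 6 endothelial, 1 of 7 leukocyte and 1 of 6 neuroendocrine (SYP) genes were listed. The fibroblast and smooth muscle genes summed to 101 to 111 CPM in LV-MEIS1 and 74.2 to 84.5 CPM in HOXB13ko-LV-MEIS1.

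HOXB13 mRNA was higher, not lower, in the libraries labelled as the knockout. It was 152, 150 and 151 CPM in LV-MEIS1 and 326, 361 and 375 CPM in HOXB13ko-LV-MEIS1, and the groups did not overlap. The log2 fold change was 1.23 ± 0.07 (SE, n = 3 per group, limma treat adjusted p = 3.9e-06). The exact two-sided permutation p over the 6 libraries was 0.1, and no smaller p is possible with 3 libraries a group. The transcript was thus not reduced in the libraries labelled as the knockout. CPM summed over a gene carries no information on editing or translation, so it does not test the label. Directions below therefore describe the libraries as labelled. The added gene, MEIS1, was 49.6, 46.8 and 45.8 CPM in LV-MEIS1 and 30.1, 29.8 and 29.3 CPM in HOXB13ko-LV-MEIS1. MEIS1 was therefore not matched between the groups, with a log2 fold change of -0.66 ± 0.07, which passed limma's test against no change (eBayes adjusted p = 4.3e-06) and not treat (adjusted p = 1). Its exact two-sided permutation p was also 0.1. The part of this difference in any result was not tested.

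Of 13951 genes, 936 (6.71%) were called, which means a Benjamini-Hochberg adjusted p under 0.05 in limma's treat test against a fold change of 1.5. In HOXB13ko-LV-MEIS1, 459 (3.29%) were higher and 477 (3.42%) lower. The median size of the called changes was 1.32 on the log2 scale, and 162 genes changed more than 4-fold. All replicates of one group lay above those of the other in 58.3% of genes, so the absence of overlap alone distinguishes few genes. The highest called genes included an amino acid transporter, interleukin-1 receptors and the androgen-induced gene NDRG1. The lowest included the secreted proteoglycans DCN and LUM and the neuronal adhesion gene SLITRK6.

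**Figure D1:**
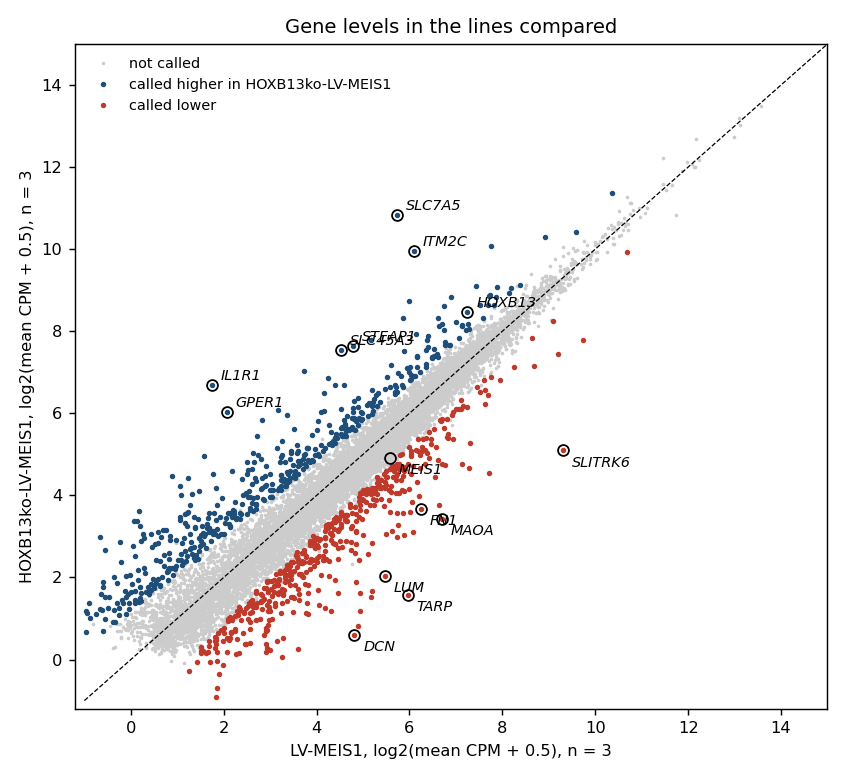
Mean expression in LV-MEIS1 (horizontal axis) and HOXB13ko-LV-MEIS1 (vertical axis), both as log2(CPM + 0.5), with 1 point per gene and the line of equality dashed. The 459 genes called higher are blue, the 477 called lower are red, and circles mark named genes, with SLC7A5 and IL1R1 far above the line and DCN, TARP and SLITRK6 far below it.

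SLC7A5 (ENSG00000103257, GRCh38 chromosome 16, 87830023 to 87869507), the light chain of a large neutral amino acid transporter, had the largest increase. It was 57.5, 48.2 and 52.6 CPM in LV-MEIS1 and 1706, 1771 and 1979 CPM in HOXB13ko-LV-MEIS1, which is 5.10 ± 0.08 on the log2 scale (SE, adjusted p = 1.1e-14 by limma treat). Its partner SLC3A2, the heavy chain of the same transporter, was 57.3, 56 and 59.7 CPM against 308, 293 and 350 CPM (2.45 ± 0.07, adjusted p = 2.8e-11). Both chains were thus higher in every HOXB13ko-LV-MEIS1 library. Of 41 genes listed for ATF4 targets and amino acid transport, 6 were called (14.6%, against 6.71% of all genes), all higher. Of the 41, 38 had a log2 fold change above 0 (median 0.44, against -0.02 over all genes). The others called were DDIT4, an inhibitor of mTORC1 signalling (1.33), STC2, a secreted glycoprotein (0.98), PSPH, a serine synthesis enzyme (0.78), and ALDH1L2, a mitochondrial folate enzyme (0.96). The call of PSPH (adjusted p = 0.0423) was lost without Control replicate 3, LV-MEIS1 replicate 2 or 3, any HOXB13ko replicate, or HOXB13ko-LV-MEIS1 replicate 1 or 3 (0.0517 to 0.169). It was also lost in a fit of the 6 libraries alone (0.0966), with a pseudocount of 1 (0.0585) and under scaling to equal sums (0.135).

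Signalling receptors stood among the other large increases. IL1R1, the signalling receptor for interleukin-1, was 3.10, 2.44 and 2.98 CPM in LV-MEIS1 and 97, 109 and 99.7 CPM in HOXB13ko-LV-MEIS1 (log2 fold change 4.94 ± 0.09, limma treat adjusted p = 3.6e-14). IL1R2, its decoy receptor, was 0.277, 0.0469 and 0.222 CPM against 5.96, 6.02 and 5.70 CPM (3.24 ± 0.17). The LV-MEIS1 values of IL1R2 lay near the level of 3 reads, so its size depends on the pseudocount. GPER1, a G protein-coupled oestrogen receptor, was 3.49, 3.8 and 3.74 CPM against 60.7, 67.8 and 66.6 CPM (3.97 ± 0.07, adjusted p = 3.6e-14). ITM2C (ENSG00000135916, chromosome 2, 230864639 to 230879248), a BRICHOS-domain membrane protein, was 70.6, 64.5 and 69 CPM against 930, 1017 and 1033 CPM (3.86 ± 0.06). The rule that named these genes required the groups not to overlap, so their separation is not a further result. Other members of the highest 12 were the fatty acid hydroxylase CYP4F22 (3.64), the homeobox gene HLX (3.59), the adenylyl cyclase ADCY1 (3.43), the bHLH-PAS factor ARNT2 (3.32), NDRG1 (3.28) and the gap junction gene GJB1 (3.25). CYP4F22 was 0.0469 to 0.185 CPM in LV-MEIS1, again near the level of 3 reads.

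Of 30 androgen response genes listed, 10 were called higher and 2 lower (40% called, against 6.71% of all genes). Of the 30, 25 had a log2 fold change above 0, and the median was 0.58. SLC45A3, a prostate solute carrier also known as prostein, was 23.5, 21 and 23 CPM in LV-MEIS1 and 175, 185 and 196 CPM in HOXB13ko-LV-MEIS1 (3.02 ± 0.07, limma treat adjusted p = 2.3e-12). STEAP1, a membrane metalloreductase, was 29.5, 25.8 and 25.9 CPM against 200, 208 and 185 CPM (2.85 ± 0.06). NDRG1, an androgen- and stress-induced gene, was 13.1, 11.9 and 13.6 CPM against 113, 140 and 136 CPM (3.28 ± 0.08). The prostate kallikreins KLK2 (0.89) and KLK4 (1.14), the co-chaperone FKBP5 (1.20), STEAP2 (1.92), TMEFF2 (1.02) and PLPP1 (1.57) were also called higher. The 2 called lower were RAB3B, a secretory vesicle GTPase (-1.02), and TARP. TARP, a prostate transcript of the T cell receptor gamma locus, was 65.3, 56.8 and 63 CPM against 1.66, 2.41 and 3.44 CPM (-4.41 ± 0.17), and its value is uncertain because segments of that locus share sequence.

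Among 16 prostate luminal factors (25% called, against 6.71% of all genes), 3 were called higher, KLF4 (1.21) and HOXB13 among them. KLF5 was called lower (-0.86 ± 0.07, limma treat adjusted p = 0.0157). The call of KLF5 was lost without LV-MEIS1 replicate 1 or 2 or HOXB13ko-LV-MEIS1 replicate 1 (adjusted p of 0.0659 to 0.0883). It was also lost under quantile scaling (0.0518). Of the 13 luminal markers (38.5% called), 4 were called higher, including KLK2, HOXB13 and SLC45A3, and the luminal keratin KRT19 lower (-1.10). The 16 genes of androgen synthesis and steroid glucuronidation (12.5% called) included 1 called higher, the steroid sulfatase STS (1.04). The 1 called lower was UGT2B10 (-1.21), and the median of the list was 0.04. UGT2B10 belongs to a family of near-identical genes, so its value is uncertain.

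The secreted small leucine-rich proteoglycans DCN and LUM were among the most reduced genes. DCN (ENSG00000011465, chromosome 12, 91140484 to 91183217), encoding decorin, was 28.3, 28.2 and 26.5 CPM in LV-MEIS1 and 0.930, 1.22 and 0.873 CPM in HOXB13ko-LV-MEIS1, which is -4.23 ± 0.15 on the log2 scale (SE, adjusted p = 1.4e-10 by limma treat). The lumican gene LUM (ENSG00000139329, chromosome 12, 91102629 to 91111494) was 49.6, 41.9 and 40.2 CPM against 3.53, 3.77 and 3.59 CPM (-3.42 ± 0.11, adjusted p = 5.0e-11). Both belong to the lowest 12, a rule that required the groups not to overlap, so their separation is not a further result. HSPG2, encoding the basement membrane proteoglycan perlecan, was 8.03, 8.92 and 9.86 CPM against 1.77, 1.53 and 1.8 CPM (-2.10 ± 0.15). NRP1, a neuropilin co-receptor that can carry a glycosaminoglycan chain, was 99.2, 107 and 102 CPM against 27.1, 27 and 26.6 CPM (-1.91 ± 0.07). TGFBR3, the transforming growth factor beta co-receptor betaglycan, was 7.08, 7.99 and 6.44 CPM against 3.40, 3.21 and 3.16 CPM (-1.03 ± 0.12, adjusted p = 0.0223). Its call was lost under quantile scaling (adjusted p = 0.205) and without LV-MEIS1 replicate 1 or 2 or HOXB13ko-LV-MEIS1 replicate 2 or 3 (0.059 to 0.13). In total, 7 of 25 listed proteoglycan core proteins were called lower and 4 higher (44% called, against 6.71% of all genes, median -0.30). The others lower were SDC4 and CSPG4, and those higher were the cell-surface genes SDC1 (1.48), SDC2 (0.98) and CD44 (1.60) and the secreted SPOCK1 (1.46). Of 40 enzymes that build or sulfate glycosaminoglycan chains, 4 were called (10%, near the 6.71% of all genes), all higher: CHSY1 (1.26), which polymerises chondroitin, DSEL (1.10), a dermatan sulfate epimerase homologue, and the sulfotransferases CHST15 (1.07) and CHST3 (0.92). CHST3 lost its call without HOXB13ko-LV-MEIS1 replicate 3 (adjusted p = 0.0586). The median of these 40 genes was 0.09.

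**Figure D2:**
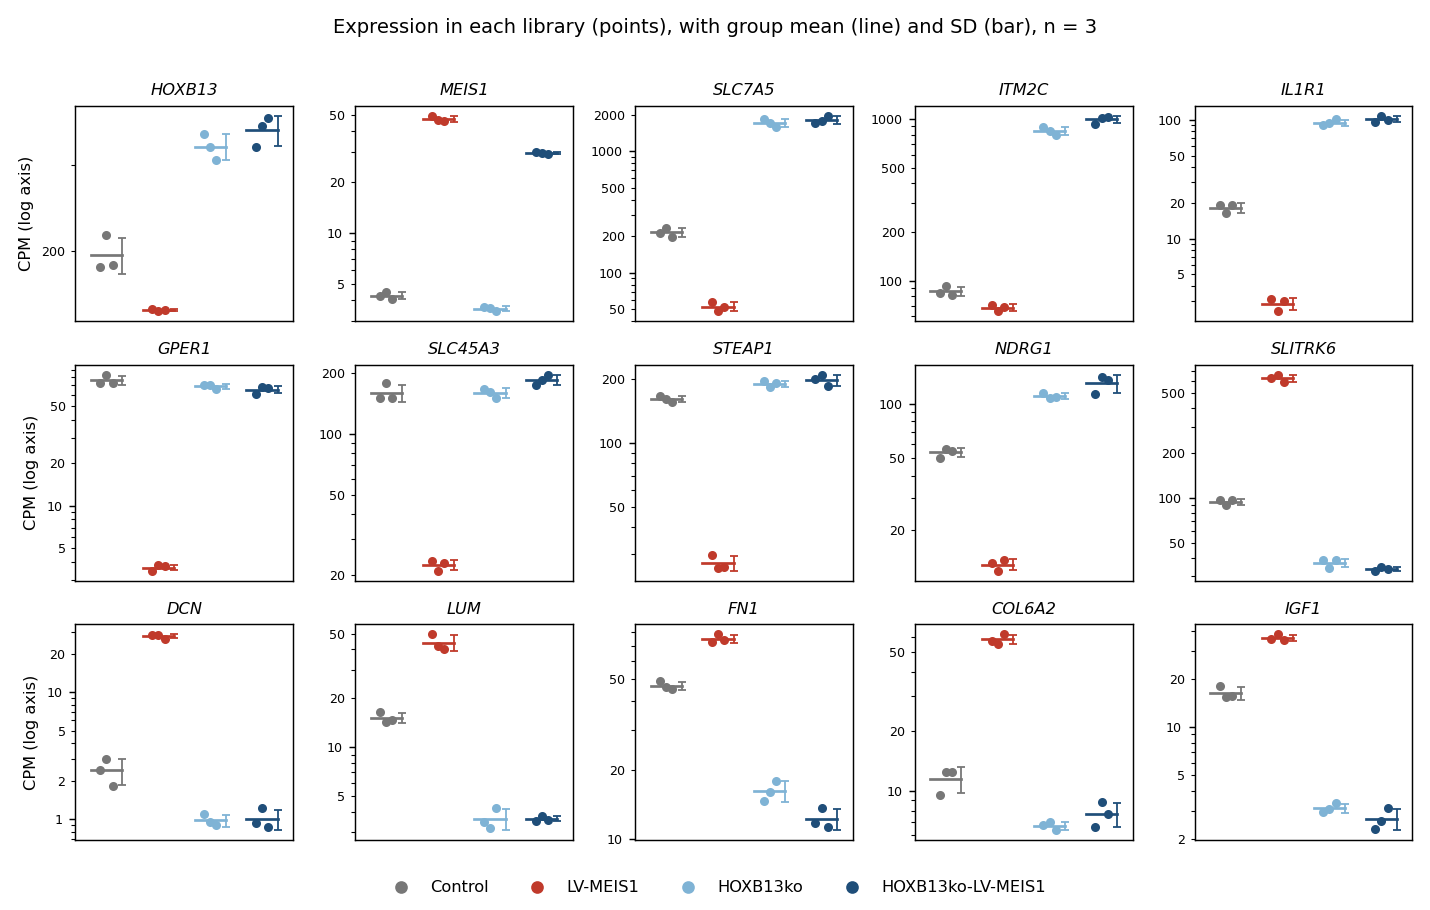
CPM of 15 genes in each of the 12 libraries on log axes, with the group mean as a line and its SD as a bar (n = 3). For SLC45A3 and GPER1 the 3 LV-MEIS1 libraries lie below the other 9, for DCN and COL6A2 they lie above them, and for each gene except MEIS1 the HOXB13ko and HOXB13ko-LV-MEIS1 groups are close together.

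Matrix genes had the highest share of calls among the pathway lists examined. Of 41 collagen, laminin and matrix remodelling genes, 21 were called (51.2%, against 6.71% of all genes), 14 lower and 7 higher (median -0.23). COL6A2, a type VI collagen chain, was 57.3, 55.4 and 61.7 CPM in LV-MEIS1 and 6.64, 8.79 and 7.66 CPM in HOXB13ko-LV-MEIS1 (-2.85 ± 0.11, limma treat adjusted p = 1.0e-09). FN1, encoding fibronectin, was 72.5, 78.4 and 74.2 CPM against 11.7, 13.7 and 11.3 CPM (-2.57 ± 0.08, adjusted p = 1.6e-10). COL5A2 (-2.24), the laminin chains LAMA3 (-1.78), LAMA5 (-0.89), LAMB1 (-0.81) and LAMB2 (-0.81), NID1 (-1.10) and NPNT (-1.38) were lower as well. In the other direction, MFAP2, a microfibril glycoprotein, was 1.94, 1.31 and 1.48 CPM against 15.5, 20.3 and 18.6 CPM (3.17 ± 0.14), and RELN, encoding the secreted protein reelin, was 0.387, 0.937 and 0.814 CPM against 7.29, 8.43 and 6.06 CPM (2.70 ± 0.21). COL9A3 (2.01) and LOX, a collagen cross-linking oxidase (1.53), were also higher. The list thus changed in both directions. The matrix and fibroblast gene COL1A1 was called lower (-0.98), whereas the smooth muscle and fibroblast markers ACTA2 (1.19) and PDGFRB (1.30) were called higher. The part of other cell types in these values was not tested. Leaving out 1 library ended the calls of LAMA5 (LV-MEIS1 replicate 3 or HOXB13ko-LV-MEIS1 replicate 3, adjusted p of 0.0538 to 0.0652) and LAMB1 (LV-MEIS1 replicate 2 or 3 or HOXB13ko-LV-MEIS1 replicate 3, 0.0514 to 0.0853). It also ended that of LAMB2 (Control replicate 3, LV-MEIS1 replicate 1 or 3, HOXB13ko replicate 2 or any HOXB13ko-LV-MEIS1 replicate, 0.0561 to 0.247). The same held for PDGFRB (any LV-MEIS1 replicate or HOXB13ko-LV-MEIS1 replicate 1 or 2, 0.0507 to 0.128). PDGFRB also lost its call with a pseudocount of 1 (0.368) and under quantile scaling (0.22), and LAMB2 under median of ratios scaling (0.0556).

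Among 17 integrin subunit genes (23.5% called, against 6.71% of all genes), ITGA6 was called higher (1.33 ± 0.10). ITGB8 (-1.33 ± 0.13), ITGB4 (-1.13 ± 0.13) and ITGA2B (-1.09 ± 0.15) were called lower. Of the 17, 3 had a log2 fold change above 0 (median -0.30). ITGA2B (limma treat adjusted p = 0.0395) lost its call with a pseudocount of 1 (0.0968), under quantile scaling (0.159), in a fit of the 6 libraries alone (0.101), and without any Control or LV-MEIS1 replicate, HOXB13ko replicate 2 or 3, or HOXB13ko-LV-MEIS1 replicate 3 (0.0503 to 0.214), and ITGB4 lost it under quantile scaling (0.0588). ITGB1, the most widely paired beta subunit, was 305, 303 and 296 CPM against 262, 270 and 266 CPM (-0.18 ± 0.05), which passed eBayes (adjusted p = 0.00885) and not treat (adjusted p = 1). The 16 epithelial and mesenchymal state genes (12.5% called) included FN1 and the mesenchymal regulator TWIST1 (-1.05 ± 0.12) as called lower. None was called higher, and the median was 0.04. The call of TWIST1 was lost without LV-MEIS1 replicate 3 or HOXB13ko-LV-MEIS1 replicate 1 (adjusted p of 0.0766 and 0.0679). It was also lost under quantile scaling (0.0713).

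SLITRK6 (ENSG00000184564, chromosome 13, 85792790 to 85806683), a neuronal transmembrane protein that regulates neurite growth, was 632, 663 and 597 CPM in LV-MEIS1 and 32.7, 34.7 and 33.8 CPM in HOXB13ko-LV-MEIS1 (-4.20 ± 0.06, limma treat adjusted p = 5.3e-15). Of 35 neurite adhesion genes, 6 were called lower and 5 higher (31.4% called, against 6.71% of all genes, median 0.06). SDK1, a sidekick cell adhesion molecule, was 26, 28.8 and 30 CPM against 3.45, 2.97 and 3.27 CPM (-2.95 ± 0.13), and FLRT3, a leucine-rich repeat adhesion protein, was 22, 20 and 19.1 CPM against 3.87, 2.89 and 3.31 CPM (-2.44 ± 0.15). CNTNAP2, a contactin-associated protein, was higher, but its LV-MEIS1 replicates spread widely, at 10.2, 5.87 and 2.20 CPM against 37.3, 48.8 and 43 CPM (2.93 ± 0.34, adjusted p = 1.1e-04). Axon guidance genes were called in 20 of 58 cases (34.5%), 11 higher and 9 lower (median -0.01). Those higher included the semaphorin SEMA6D (2.66) and the netrin receptors UNC5C (2.18) and UNC5A (1.85), and those lower included NRP1, the plexin PLXNA2 (-1.74) and the semaphorin SEMA3C (-1.70).

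Receptor subunits for neurotransmitters also moved both ways, with 4 of 25 called higher and 2 lower (24% called, against 6.71% of all genes, median 0.28). The GABA type A receptor subunit GABRB2 was 9.80, 8.25 and 7.62 CPM against 67.8, 66.2 and 67.4 CPM, higher by 2.91 ± 0.09 on the log2 scale. The nicotinic subunits CHRNA2 (2.03) and CHRNB2 (1.59) were called higher too. CHRNB2 was low in LV-MEIS1, at 0.0553, 0.516 and 0.259 CPM, so its size depends on the pseudocount. GABBR1, a subunit of the metabotropic GABA type B receptor, was 25.1, 32.4 and 29.4 CPM against 1.08, 2.58 and 0.141 CPM (-4.33 ± 0.40), with a wide spread in HOXB13ko-LV-MEIS1, and the glutamate receptor subunit GRIN1 was lower (-1.32). Of 20 neuroendocrine and neurosecretory genes, 4 were called (20%), all higher (median 0.06). They were SRRM4, a neuronal splicing regulator (1.45, 2.02 and 2.84 CPM against 7.84, 9.43 and 8.71 CPM), the synaptotagmin SYT4 (75, 68.3 and 66.7 CPM against 241, 250 and 243 CPM), the granin family gene SCG3 (1.26 ± 0.15) and the synaptic vesicle gene SV2A (0.80 ± 0.04). SCG3 lost its call with a pseudocount of 1 (adjusted p = 0.0924). In Control, SRRM4 (26.8, 27.4 and 29.3 CPM), SCG3 (mean 9.82 CPM, against 0.468 CPM in LV-MEIS1 and 1.84 CPM in HOXB13ko-LV-MEIS1) and CHRNB2 (mean 12.1 CPM, against 0.277 and 1.82 CPM) stood above both groups compared here.

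The remaining members of the lowest 12 were the growth factor IGF1, at 35.7, 38 and 34.9 CPM against 2.32, 2.59 and 3.11 CPM (-3.54 ± 0.11, limma treat adjusted p = 2.8e-11), and MAOA, a monoamine oxidase, at 104, 102 and 104 CPM against 9.57, 11 and 9.97 CPM (-3.28 ± 0.07, adjusted p = 6.0e-13). The arylsulfatase ARSJ (-3.76), the secreted calcium-binding protein SMOC1 (-3.66) and the exchange factor ARHGEF38 (-3.33) were lower too. MAGED4B (-3.23 ± 0.34) and NXF2 (-3.92 ± 0.99) each have a near-identical copy, and their values are uncertain. NXF2 was 40, 37.4 and 12.4 CPM against 1.14, 0.00039 and 6.55 CPM, the widest spread among the lowest 12. Its call (adjusted p = 0.0374) was lost without LV-MEIS1 replicate 1 or 2, HOXB13ko replicate 2, or HOXB13ko-LV-MEIS1 replicate 1 or 2 (0.0531 to 0.223). A pseudocount of 0.1 (0.0658) or quantile scaling (0.0503) also ended that call.

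**Figure D3:**
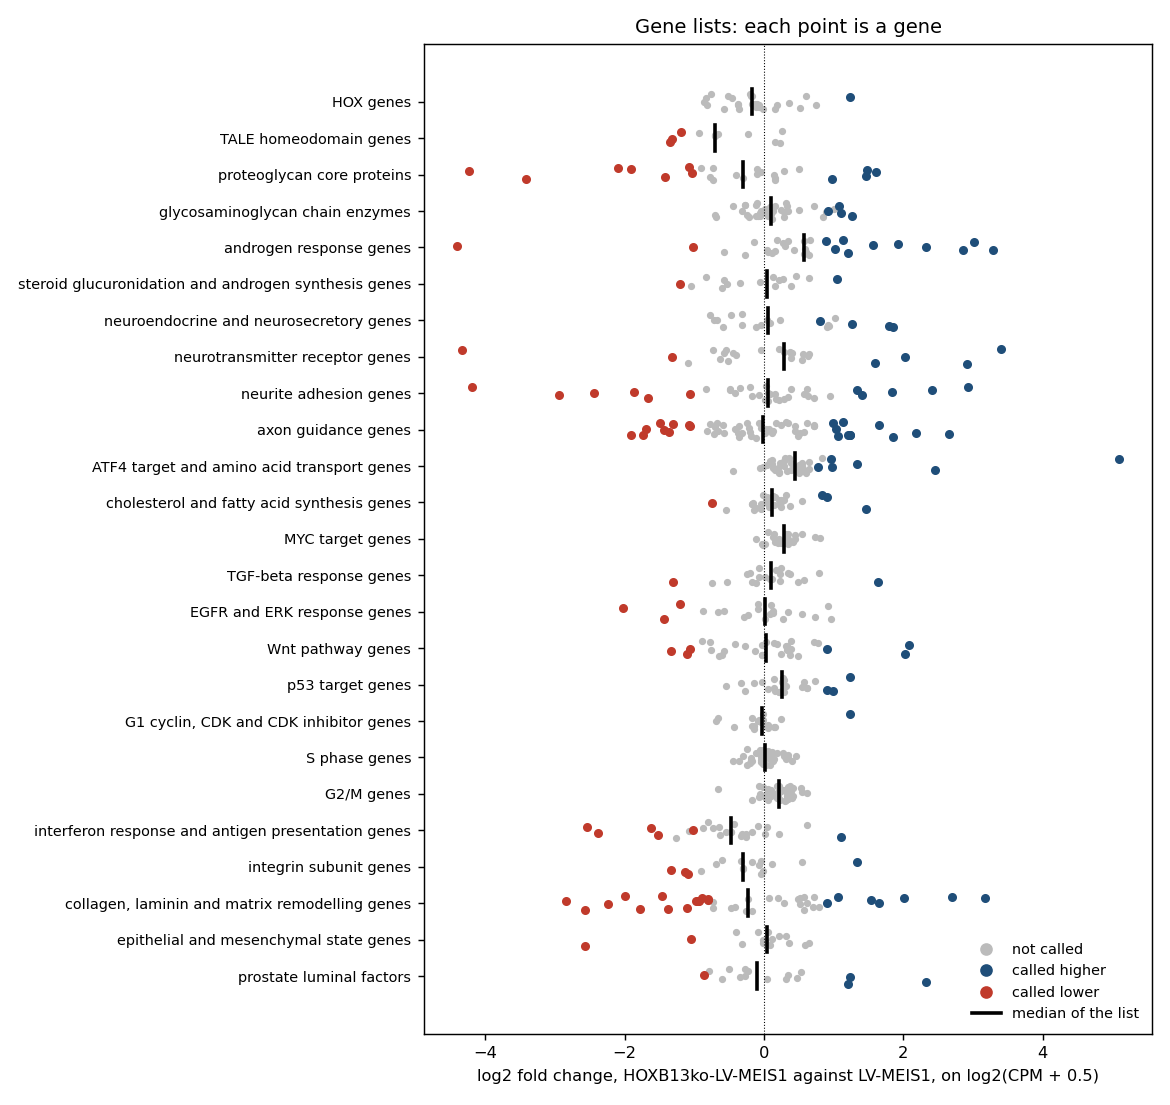
Log2 fold changes, HOXB13ko-LV-MEIS1 against LV-MEIS1, of the genes of each list, with 1 point per gene, genes called higher in blue, called lower in red and not called in grey, and the median of each list as a bar. The androgen response list has 10 blue and 2 red points, the matrix list 7 and 14, and the S phase and G2/M lists have none of either colour.

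Calls among signalling targets made up 14.3% of the EGFR and ERK list and 19.4% of the Wnt list, against 6.71% of all genes. Of 21 EGFR and ERK response genes, the receptor ERBB2 (mean 113 CPM against 41.5 CPM, -1.44 ± 0.07) and the feedback inhibitors SPRY4 (-2.02 ± 0.11) and DUSP4 (-1.21 ± 0.11) were called lower and none higher, with a median of 0.01. EGFR itself was 37.9, 46.9 and 45 CPM against 73.8, 70.1 and 71.3 CPM, a log2 fold change of 0.73 ± 0.08 that passed eBayes (adjusted p = 2.6e-06) and not treat (adjusted p = 0.455). Among 31 Wnt pathway genes, NOTUM (2.02), SOSTDC1 (2.08) and the receptor FZD4 (0.90) were higher and the secreted inhibitor DKK1 (-1.34), the receptor FZD8 (-1.10) and the transcription factor LEF1 (-1.06) lower. NOTUM and SOSTDC1 encode secreted Wnt antagonists. FZD4 lost its call without LV-MEIS1 replicate 2 or HOXB13ko-LV-MEIS1 replicate 1 (adjusted p of 0.0558 and 0.0594). In the TGF-beta response list, THBS1, encoding thrombospondin-1, was higher (1.64 ± 0.09), and the ligand TGFB1 was lower (-1.31 ± 0.10), among 22 genes (9.09% called, against 6.71% of all genes).

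In the interferon response and antigen presentation list, 5 of 27 genes were called lower and 1 higher (22.2% called, against 6.71% of all genes). Of the 27, 5 lay above 0, and the median was -0.48. IFI44L, an interferon-induced gene, was 34.5, 35.8 and 32.1 CPM in LV-MEIS1 and 6.07, 4.82 and 5.46 CPM in HOXB13ko-LV-MEIS1 (-2.54 ± 0.10, limma treat adjusted p = 1.1e-09). The class I genes HLA-C (70.9, 59.5 and 64.2 CPM against 19.9, 20.4 and 26.7 CPM, -1.52 ± 0.12) and HLA-B (-1.02) and the interferon-induced IFI6 (-1.63 ± 0.21) were lower, and the exonuclease ISG20 (1.10) was higher. The HLA genes share sequence with each other and are polymorphic, so their values are uncertain. HLA-B lost its call without LV-MEIS1 replicate 1 or HOXB13ko-LV-MEIS1 replicate 1 (adjusted p of 0.0817 and 0.0988). Quantile scaling also ended it (0.0916).

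No gene of either cell cycle phase list was called. Of 43 S phase genes, 0 were called by limma treat, 0 had an unadjusted treat p under 0.05, and 17 passed eBayes, which tests against no change, while the log2 fold changes ran from -0.44 to 0.46 with a median of 0.01. Of 54 G2/M genes, 0 were called by limma treat, 0 had an unadjusted treat p under 0.05, and 36 passed eBayes, with 48 of 54 above 0 and a median of 0.21. CDKN1A, the inhibitor p21, was the 1 of 20 G1 regulators called, at 74.2, 65.4 and 74.1 CPM in LV-MEIS1 and 165, 163 and 176 CPM in HOXB13ko-LV-MEIS1 (1.24 ± 0.06, adjusted p = 1.5e-06). It is also a p53 target, and 3 of 25 p53 targets were called higher, with GDF15 (0.99) and SPATA18 (0.90). These shares, 5% of the G1 regulators and 12% of the p53 targets, stand beside 6.71% of all genes. GDF15 lost its call without LV-MEIS1 replicate 1 or 2 or HOXB13ko-LV-MEIS1 replicate 2 or 3 (adjusted p of 0.0576 to 0.115), and SPATA18 without HOXB13ko-LV-MEIS1 replicate 1 (0.0507). MYC was 230, 214 and 235 CPM against 341, 398 and 395 CPM, a log2 fold change of 0.73 ± 0.07 that passed eBayes (adjusted p = 5.2e-07) and not treat (adjusted p = 0.259, or 0.037 without HOXB13ko-LV-MEIS1 replicate 1). Of 25 MYC targets, 0 were called by limma treat, 2 had an unadjusted treat p under 0.05, 18 passed eBayes, and 22 lay above 0 (median 0.28). In lipid synthesis, the fatty acid desaturase FADS2 (1.47) and the sterol sensor regulator INSIG1 (0.83) were higher and the desaturase SCD lower (-0.75 ± 0.05, adjusted p = 0.0251), among 35 genes with a median of 0.11 (11.4% called). SCD lost its call without any 1 LV-MEIS1 replicate or HOXB13ko-LV-MEIS1 replicate 1 (0.0521 to 0.132). It also lost it in a fit of the 6 libraries alone (0.113).

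Among the homeodomain genes of the TALE family, 3 of 11 were called lower (27.3%, against 6.71% of all genes) and none higher. The median of the 11 was -0.71. Among those lower, IRX5 was 78.4, 72.5 and 80.7 CPM against 30.8, 36.6 and 33.4 CPM (-1.19 ± 0.08), and MEIS3 was 2.15, 3.27 and 2.64 CPM against 0.842, 0.747 and 0.708 CPM (-1.32 ± 0.16). HOXB13 was the 1 called among 27 HOX genes (3.7%, median -0.17). HOXA9 overlapped between the groups (-0.20 ± 0.10, eBayes adjusted p = 0.104), and HOXA10 was 9.02, 8.58 and 8.88 CPM against 12.5, 11.9 and 14.2 CPM (0.52 ± 0.09, treat adjusted p = 1).

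The study's 157 prioritised MEIS1 targets were chosen by the study in part on their change in LV-MEIS1. Neither the share called here nor the direction of the calls is therefore independent evidence. Of these 157 genes, 105 (66.9%, against 6.71% of all genes) were called, 62 lower and 43 higher, with a median of -0.61.

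The same knockout label was compared without added MEIS1, in HOXB13ko against Control, which shares no library with the comparison above. There, 197 of 13951 genes (1.41%) were called, 91 (0.652%) higher and 106 (0.760%) lower. Of the 936 genes called with MEIS1, 143 (15.3%) were also called without it, which is 72.6% of the 197, and 127 of the 143 had the same direction. For the 936 genes the median size of the log2 fold change was 1.32 with MEIS1 and 0.45 without it, and 82.6% had the same sign in both, against 60% of all genes. Choosing genes by the first contrast inflates its size. ITM2C (log2 fold changes of 3.86 and 3.29), SLC3A2 (2.45 and 1.92) and THBS1 (1.64 and 1.43) were high in both. The contrasts differed by 0.56 ± 0.09 for ITM2C (SE, eBayes adjusted p = 2.9e-04) and 0.53 ± 0.10 for SLC3A2 (8.9e-04), neither of which passed treat, and by 0.21 ± 0.13 for THBS1 (eBayes adjusted p = 0.22). SLC45A3 (3.02 and 0.00), GPER1 (3.97 and -0.14), and ARNT2 (3.32 and 0.14) had log2 fold changes near 0 without MEIS1.

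A test of the difference between these knockout contrasts called 409 genes (2.93%). The contrast with MEIS1 was the more positive for 226 (1.62%) and the more negative for 183 (1.31%). Of the 936 genes, 325 (34.7%) were among the 409. The highest differences were those of HBA2 (5.10 ± 0.32), NMNAT2 (4.91 ± 0.22) and CHRNB2 (4.39 ± 0.31), and the lowest those of CNTN1 (-3.62 ± 0.19), C1QTNF3-AMACR (-3.53 ± 0.49) and GABBR1 (-3.30 ± 0.57, SE). NMNAT2, an enzyme of NAD synthesis, was 44.3, 45 and 41.1 CPM in Control, 6.34, 6.96 and 6.94 CPM in HOXB13ko, 0.592, 0.910 and 1.30 CPM in LV-MEIS1 and 6.71, 5.42 and 7.41 CPM in HOXB13ko-LV-MEIS1. Its contrast was thus negative without MEIS1 (-2.60) and positive with it (2.31). CNTN1, a contactin of axons, showed the opposite order, from 0.372 to 0.705 CPM in Control, 3.56 to 3.84 CPM in HOXB13ko, 14.3 to 15.4 CPM in LV-MEIS1 and 4.23 to 4.51 CPM in HOXB13ko-LV-MEIS1. HBA2 has a near-identical copy and C1QTNF3-AMACR shares exons with AMACR, so both are uncertain.

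**Figure D4:**
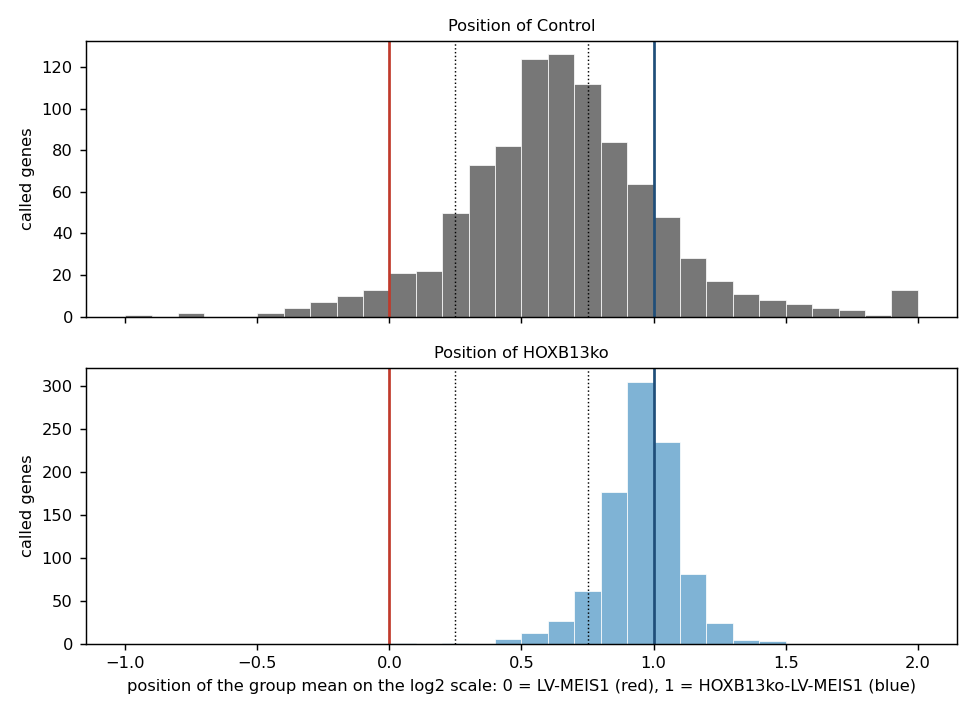
Position of the Control mean (upper plot) and of the HOXB13ko mean (lower plot) on the log2 scale for the 936 called genes, where 0 is the mean of LV-MEIS1 and 1 that of HOXB13ko-LV-MEIS1, with values beyond the plot put in its end bins and dotted lines at 0.25 and 0.75. Control is spread over the range and HOXB13ko lies around 1.

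The same genes were placed on a scale from the LV-MEIS1 mean (0) to the HOXB13ko-LV-MEIS1 mean (1). Control lay under 0.25, with LV-MEIS1, for 105 genes (11.2%), between 0.25 and 0.75 for 489 (52.2%) and above 0.75, with HOXB13ko-LV-MEIS1, for 342 (36.5%). These shares have SDs of 0.77, 0.343 and 0.432 percentage points when each Control replicate is used alone. HOXB13ko lay above 0.75 for 866 of the 936 genes (92.5%), between for 69 and under 0.25 for 1. In absolute terms, HOXB13ko-LV-MEIS1 and HOXB13ko differed by more than 1.5-fold in their means for 12 called genes (1.28%) and 0.975% of the whole table. LV-MEIS1 and Control differed by that much for 685 called genes (73.2%) and 12.2% of the whole table. LV-MEIS1 and HOXB13ko-LV-MEIS1 enter both the choice of these genes and the scale, so these shares are a description.

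Genes placed at either end illustrate the classes. ITM2C had 84.1, 92.6 and 81.3 CPM in Control, close to LV-MEIS1, and 896, 846 and 800 CPM in HOXB13ko. CHST15, SEMA6D, SLC3A2 and SV2A shared this placing of Control. SLC45A3 had 151, 178 and 150 CPM in Control and 167, 162 and 150 CPM in HOXB13ko, so that LV-MEIS1 was the group that stood apart. STEAP1, GABRB2, MFAP2, DCN, COL6A2 and SPRY4 also had Control with HOXB13ko-LV-MEIS1. DCN, at position 0.78, was 2.46, 2.99 and 1.83 CPM in Control and 1.1, 0.947 and 0.899 CPM in HOXB13ko. Its knockout contrast without MEIS1 was -0.96 ± 0.15 (eBayes adjusted p = 3.5e-04, treat adjusted p = 0.612). That contrast was -0.73 for COL6A2, 0.47 for SPRY4, 0.45 for GABRB2, 0.24 for STEAP1 and -0.08 for MFAP2, and none was called. LUM lay between, at 16.4, 14.4 and 14.7 CPM in Control and 3.48, 3.18 and 4.21 CPM in HOXB13ko. SLC7A5 lay between as well, at 211, 236 and 199 CPM in Control and 1853, 1726 and 1599 CPM in HOXB13ko.

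Genes called higher were frequent near the end of chromosome 15. The stretch of chromosome 15 between RPP25 and TARSL2 (74954418 to 101724473) held 140 listed genes. Of these, 47 were called higher and 2 lower (35%, against 6.71% of all genes), and 125 of 140 lay above 0 (median 0.65). The other 311 genes of chromosome 15 had a median of 0.00. The same 140 genes had medians of -0.57 in LV-MEIS1 and 0.09 in HOXB13ko, each against Control. On chromosome 19, 4 of the 13 genes from PIP5K1C to ANKRD24 (3630183 to 4224814) were called higher (30.8%, median 0.64). Their medians were -0.93 in LV-MEIS1 and -0.10 in HOXB13ko, each against Control. The bounds of both runs were set from earlier values of these data, so their counts are a description, and the wider chromosome 19 stretch from GNA11 to DPP9 had a median of 0.07 with 4 genes called higher and 3 lower. ARNT2, CHSY1, SEMA4B, ISG20 and CSPG4 lie in the chromosome 15 run. Without both runs, 877 genes were called. IGF1R (18.7 ± 1.97 CPM against 51.8 ± 1.15 CPM, SD), the receptor for IGF1, and the mitochondrial enzyme IDH2 (1.07) are other called members, named after their values were seen.

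**Figure D5:**
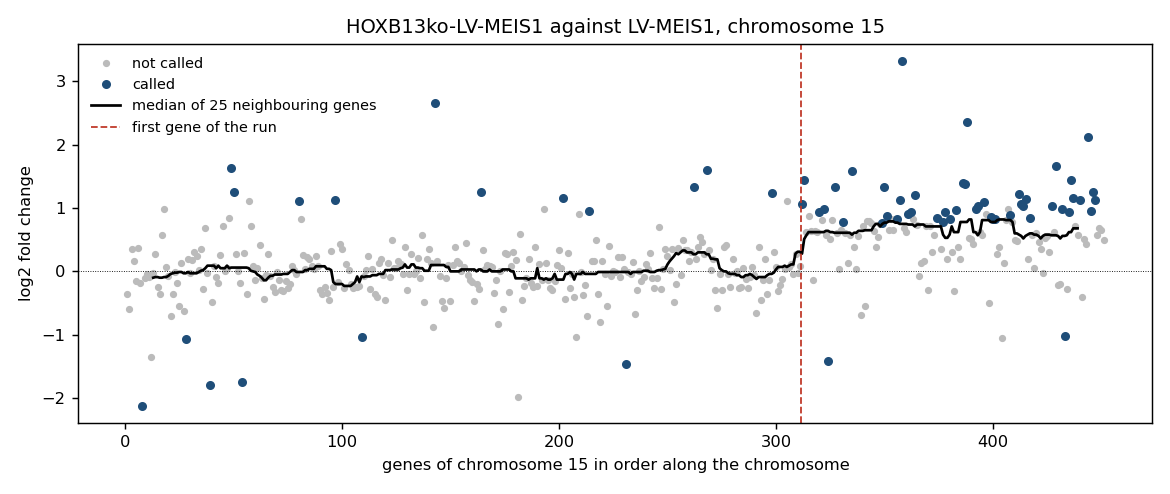
Log2 fold changes, HOXB13ko-LV-MEIS1 against LV-MEIS1, of the listed genes of chromosome 15 in their order along the chromosome, with called genes in blue, others in grey, and the median of 25 neighbouring genes as a line. The line runs near 0 up to the dashed mark and stays above it from there to the end of the chromosome.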

How the data were processed

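The authors processed single-end 50 bp reads with Trimmomatic 0.38 and kallisto 0.43.1 against the Ensembl GRCh38 transcriptome, summed estimated counts to genes, filtered low genes and scaled libraries in edgeR 3.22.2. The deposited values are CPM per gene symbol and library. Library strand was not stated to be used, so overlapping and near-identical genes are uncertain. The 42 exactly repeated rows among 13993 were dropped. Only 47.5% to 60.6% of low values lay near whole reads (tolerance 0.1), so whole reads could not be recovered for a count model. Depth is an estimate and carries no interval.

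Linear models with a mean for each group were fitted to log2(CPM + 0.5) of all 12 libraries in limma 3.58.1 (R 4.3.3). Log2 fold changes are on that scale and understate changes of low genes. Calls used treat against a 1.5-fold change with a trended prior, at a Benjamini-Hochberg adjusted p under 0.05 over all genes, the fold and FDR of the study's own count test. The adjusted p called eBayes tests against no change. Data were simulated for HOXB13ko-LV-MEIS1 against LV-MEIS1 over 13951 genes, with 100 genes changed at each size. The test called 65% of true 2-fold changes, 99% of true 4-fold changes and 0 of the unchanged genes. Unchanged genes lie far from the 1.5-fold limit. That 0 therefore gives no rate of false calls for changes just under the limit or for differences between lines. The shares called may not hold for genes of low expression.

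Named genes were a panel that the study discusses, the 12 highest and 12 lowest called genes that averaged at least 1 CPM and showed no overlap between the groups, up to 4 called members per list with the largest change, and the 3 highest and 3 lowest of the difference. Further list members are given with their value only. MEIS2 was not analysed here, and some genes that the rule names are not reported here. The comparison, the lists and the rule were chosen with earlier results of these data known. Gene positions came from GENCODE 44 for 13786 genes (98.8%), 579 of them by an older symbol. The guide was read from the study's reagent list and matched to GRCh38. Groups and replicate numbers came from the sample labels, which name no batch. The same-numbered replicates of the compared groups did not deviate together (correlations of -0.11, -0.01 and 0.01), so the numbers were not used as pairs. Figures were drawn with matplotlib 3.10.9.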

Additional observations from a re-analysis of the deposited data

Results flagged for a closer look

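The knockout contrast differed between the lines with and without added MEIS1, as tested on the difference itself (limma treat, Benjamini-Hochberg adjusted over all genes), and 409 genes were called. Values are the log2 fold change with MEIS1 minus that without it. All 12 libraries enter this test. It equals the MEIS1 contrast with HOXB13 targeted minus that without.

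Of the genes whose values the text gives, the following had a more positive contrast with MEIS1 by more than 2 on the log2 scale: HBA2 (5.10), NMNAT2 (4.91), CHRNB2 (4.39), GPER1 (4.11), SCG3 (3.35), SRRM4 (3.28), MFAP2 (3.25), ARNT2 (3.18), SLC45A3 (3.01), HLX (2.78), STEAP1 (2.61), UNC5A (2.59), IL1R1 (2.59), NOTUM (2.54), GABRB2 (2.46), CNTNAP2 (2.36), NDRG1 (2.26), ADCY1 (2.12), COL9A3 (2.09) and SLC7A5 (2.09). Smaller positive differences were those of CHRNA2 (1.92), PLPP1 (1.88), STEAP2 (1.83), IL1R2 (1.52), KLK4 (1.41), SOSTDC1 (1.39), SYT4 (1.38), IDH2 (1.34), KLK2 (1.22), SEC11A (1.09), CD44 (1.07), IGF1R (1.07), CHSY1 (1.01), SPOCK1 (0.96), FADS2 (0.96) and FKBP5 (0.92).

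Those with a contrast more negative by more than 2 were CNTN1 (-3.62), C1QTNF3-AMACR (-3.53), GABBR1 (-3.30), DCN (-3.26), ARSJ (-2.95), SLITRK6 (-2.86), ARHGEF38 (-2.54), SPRY4 (-2.48), SMOC1 (-2.22), COL6A2 (-2.12) and SDK1 (-2.04). Smaller negative differences were those of FLRT3 (-1.89), HSPG2 (-1.80), LUM (-1.49), IFI44L (-1.48), DUSP4 (-1.45), NRP1 (-1.45), MAOA (-1.36), IGF1 (-1.32), COL1A1 (-1.32), FZD8 (-1.23), IRX5 (-1.23), NID1 (-1.19), NPNT (-1.14), FN1 (-1.07), RAB3B (-1.04), SCD (-0.99) and ERBB2 (-0.98).

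HBA2 and C1QTNF3-AMACR each include a group near the level of 3 reads and share sequence with another gene. Among the androgen response genes, 9 of 30 were called with a more positive difference and 1 with a more negative one. In the matrix list 6 and 7 of 41 were. These calls are 33.3% and 31.7% of the lists, against 2.93% of all genes. Single outlying samples were not tested within groups of 3 libraries.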

How the results depend on the processing

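Tested against no change (eBayes), limma called 6993 genes in HOXB13ko-LV-MEIS1 against LV-MEIS1, 4590 in HOXB13ko against Control and 4771 in the difference of the contrasts. With the 1.5-fold limit applied afterwards the counts were 2239, 806 and 1858, because the fold change is then no longer part of the test. At an adjusted p under 0.01 the difference fell to 272 genes. Leaving out each of the 12 libraries in turn gave 837 to 954, 146 to 194 and 333 to 392 genes. The other alternatives (pseudocounts of 0.1 and 1, a mean of at least 1 CPM, 3 scalings, only the 6 libraries compared, and without the runs of chromosomes 15 and 19) gave 871 to 1013 genes in the first contrast, all within 1.5 times of 936. Between scalings the share of calls that were higher ran from 45.4% to 54.8%, against 49% in the fit reported, and the median of all genes moved by at most 0.033.

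With a replicate block, which the numbers did not justify as a pairing, the counts were 895, 166 and 356. Of the genes whose values are given, it ended the calls of NXF2, SCD, ITGA2B, PSPH and LAMB2 and changed no other.

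HOXB13 kept its call under every alternative, from 1.18 to 1.28 when leaving out a library. MEIS1 (-0.66, from -0.69 to -0.63 when leaving out a library) passed with both eBayes tests and not with treat. With bounds of 0.33 and 0.67, Control lay with LV-MEIS1 for 16.7% of the called genes, between for 37.2% and with HOXB13ko-LV-MEIS1 for 46.2%.

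No named gene changed direction. Calls were lost in 37 of 1584 gene values under other settings and in 65 of 1596 when leaving out a library. The genes that lost a call at least once are those for which a lost call is stated in the text, and the cause was not tested. MYC was called without replicate 1 of HOXB13ko-LV-MEIS1 (0.81). The medians of the EGFR and ERK, Wnt, axon guidance, S phase, and epithelial and mesenchymal lists lay near 0 and changed sign under some alternatives. Values near 3 reads limit what can be said of IL1R2, CYP4F22, UNC5A, CHRNB2, HBA2 and C1QTNF3-AMACR.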

Other observations

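Runs of 25 adjacent genes that averaged 5 CPM or more were examined along each chromosome after the data were seen, and overlapping runs whose median log2 fold change lay beyond 0.4 in the same direction were merged. The merged stretches are given as values, except the chromosome 15 stretch, and the median of a merged stretch can lie nearer 0 than 0.4. Over all genes, 3.29% were called higher and 3.42% lower. On chromosome 6, the 46 genes between LRP11 and PDCD2 (149818757 to 170584692) had a median of -0.40 with 6 of 46 above 0, and 5 were called lower. The same genes had medians of 0.40 in LV-MEIS1 and -0.03 in HOXB13ko, each against Control. On chromosome 19, the 27 genes between TMEM205 and ZNF791 had a median of -0.38 with 2 of 27 above 0 and 0 called by limma treat (1 at an unadjusted treat p under 0.05, 20 by eBayes). On chromosome 12, the 33 genes between BCL7A and SCARB1 had a median of 0.39, and 1 was called higher. The chromosome 19 and 12 genes had medians of 0.34 and -0.38 in LV-MEIS1 against Control, and of -0.01 and 0.01 in HOXB13ko against Control. Stretches of chromosome 9 (PAXX to ARRDC1-AS1, 30 genes, median -0.36), chromosome 11 (IFITM1 to CD151, 25 genes, -0.40) and chromosome 16 (PDP2 to CENPT, 28 genes, -0.28) held 3 genes called lower each, and their medians in HOXB13ko against Control were -0.32, -0.24 and -0.20. The chromosome 19 stretch from GNA11 to DPP9 (36 genes, 4 called higher and 3 lower, median 0.07) includes the PIP5K1C to ANKRD24 run.

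Within the chromosome 15 run, the mitochondrial DNA polymerase POLG (51.3 against 91.2 CPM), the DNA repair gene FANCI (115 against 204 CPM), the mitotic spindle gene PRC1 (139 against 284 CPM) and the signal peptidase subunit SEC11A (82.9 against 220 CPM) were called higher, as means of LV-MEIS1 against HOXB13ko-LV-MEIS1. The nuclear receptor NR2F2 went the other way, at 36.0 against 17.5 CPM. POLG lost its call without LV-MEIS1 replicate 2 or HOXB13ko-LV-MEIS1 replicate 1 or 3 (limma treat adjusted p of 0.0582 to 0.104). Scaling the libraries to equal sums also ended that call (0.052). These genes were chosen after their values were seen.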
